A study of Homo sapiens with 12 samples.

Results

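The RNA of genes that take up, carry, store, export and sense iron was followed: FTH1, FTL, NCOA4, TFRC, TF, STEAP3, SLC11A2, SLC40A1, ACO1 and IREB2. The genes were chosen by name for their roles, with earlier results of these data known. All 10 were found among the 55765 gene symbols counted in each of 12 libraries. The cells were SH-SY5Y, a cloned human neuroblastoma line that takes on a neuron-like form when given all-trans retinoic acid (ATRA). In the co-treatment experiment, 3 control libraries came from cells given ATRA for 7 days and 3 treated libraries from cells given hydrogen peroxide (H2O2) together with ATRA over the same 7 days. In the pre-treatment experiment, H2O2 (3 libraries) or none (3 controls) was given in the 72 h before ATRA, and all 6 then received ATRA for 7 days. The deposited design text gives the H2O2 dose as 10 mM. The methods of the study give the same figure in μM, chosen as the mildest for cell morphology among several μM doses tried. The dose is therefore read here as μM, and the reason for the mM label is not known. The line is a tumour clone, no library of cells without ATRA was analysed here, and the sources used here do not say whether replicates were separate cultures, so p-values measure only the spread between these libraries.

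Iron is held in the cytosol by ferritin, a shell of heavy (FTH1) and light (FTL) chains, and is freed when NCOA4 carries ferritin to the lysosome. Iron bound to transferrin (TF) enters through the transferrin receptor (TFRC), is reduced in the endosome by STEAP3, leaves it through SLC11A2 (DMT1), and leaves the cell through ferroportin (SLC40A1). The iron regulatory proteins ACO1 (IRP1) and IREB2 (IRP2) bind hairpins called iron-responsive elements. Binding near the start of a transcript blocks its translation, and binding in the 3′ untranslated region (UTR) of TFRC protects the transcript from decay. Free ferrous iron turns H2O2 into hydroxyl radicals, which is why these genes are of interest in cells under peroxide.

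The hairpins of the members are shown because those near the start of a transcript act on translation, while those of TFRC act on its amount. Only amounts of RNA were measured here. The search was for C, any 5 bases, then CAGTGN, with the 5 bases on either side of the loop able to pair (G with U allowed), on the sense strand of the canonical transcripts of GENCODE v44 lifted to GRCh37, the same build as hg19. The sequences were read from the GENCODE transcript sequences, 5′ to 3′, with the unpaired C and the loop of 6 bases in capitals. Coordinates are those of GRCh37. FTH1, FTL and SLC40A1 each hold a match in exon 1, in the 5′ UTR.
FTH1, chr11:61735046-61735074, minus strand: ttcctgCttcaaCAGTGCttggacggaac
FTL, chr19:49468592-49468620, plus strand: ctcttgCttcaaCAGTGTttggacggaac
SLC40A1, chr2:190445387-190445415, minus strand: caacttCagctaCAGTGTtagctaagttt
TFRC holds 4 matches in exon 19, in the 3′ UTR, listed in transcript order.
TFRC, chr3:195777850-195777878, minus strand: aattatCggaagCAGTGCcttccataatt
TFRC, chr3:195777446-195777474, minus strand: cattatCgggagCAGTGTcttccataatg
TFRC, chr3:195777381-195777409, minus strand: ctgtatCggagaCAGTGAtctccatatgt
TFRC, chr3:195777334-195777362, minus strand: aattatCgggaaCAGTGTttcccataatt

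Of 19894 canonical coding transcripts, 18 (0.0905%) held a match in the 5′ UTR, 122 (0.613%) a match in the 3′ UTR, and 1 (0.00503%), TFRC itself, 4 or more in the 3′ UTR. TF held 1 match in its 3′ UTR with a poorly paired lower stem, and ACO1, IREB2, NCOA4, STEAP3 and SLC11A2 held no match to this pattern in these transcripts. The pattern asks for an exact loop and full pairing beside it, so an element that departs from it would be missed. The lack of a match therefore does not show that a gene, SLC11A2 included, has no iron-responsive element. Promoters from RefSeq on GRCh38.p14 (300 bases around each start) were searched on both strands for TGACNNNGC, the core of the antioxidant response element. It was found in 1 of the 2 NCOA4 promoters and in none of the promoters given for the other 8 members with an entry (FTH1 has none), against 13.3% of 35116 promoters. These matches describe the letters only.

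**Figure D1:**
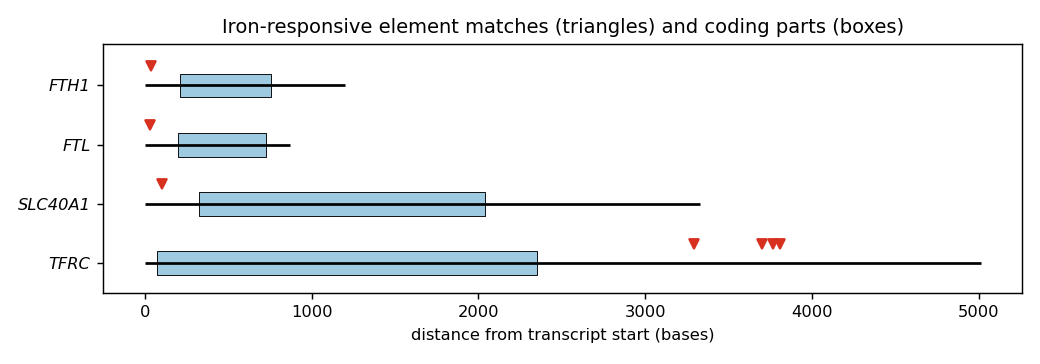
Positions of iron-responsive element matches (triangles) along the canonical transcripts of FTH1, FTL, SLC40A1 and TFRC, drawn to scale in bases from the transcript start, with the coding part as a box. The matches of FTH1, FTL and SLC40A1 begin at bases 39, 33 and 104, before the coding part, and the 4 of TFRC lie between bases 3295 and 3811, after it.

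Between 27576276 and 98287391 reads were counted on genes per library. Levels are given as counts scaled to library size (CPM) with TMM factors over all 12 libraries. A gene was called when its adjusted p (Benjamini-Hochberg) in edgeR's quasi-likelihood test over all genes tested in that comparison was below 0.05. Pre-treatment controls 1 and 2 stood apart from the other libraries. Reads on no gene were 0.7997 and 0.8301 per counted read in them, against 0.2 in pre-treatment control 3 and 0.263 to 0.4621 in the other 9 libraries. Small structured RNAs took 1.588% and 2.88% of their counts, against 17.56% in control 3 and 5.041% to 15.06% in the others. Chi-square per degree of freedom was 544.6 and 499 between control 3 and controls 1 and 2, and 24.76 to 146.7 between all other replicate pairs. Pre-treatment log2FC are given over all 6 libraries and over the 5 without control 3. The smaller set was planned because the paper's clustering was read as showing 5 pre-treatment libraries. The measures above set controls 1 and 2 apart from the rest and do not by themselves call for leaving out control 3. Which controls the authors used is not settled here. The summed level of 7 noradrenergic neuroblast markers was 1543 to 2108 CPM in co-treatment controls and 1179 to 1551 CPM in co-treated libraries. It was 1369 to 2218 CPM in pre-treatment controls and 969.9 to 1330 CPM in pre-treated libraries, without overlap. TH, the tyrosine hydroxylase gene, stayed under 1 CPM. The sum of 5 neuron markers was 1547 to 1564 CPM in co-treatment controls and 1165 to 1507 CPM in co-treated libraries. In pre-treatment these were 1302 to 1582 and 1090 to 1287 CPM, so treated libraries lay below controls in both experiments. These sums were not tested. The 9 mesenchymal markers summed to 115.4 to 306.3 CPM, with FN1 the most abundant of them in all 12 libraries, all 5 blood markers and all 3 hepatocyte markers stayed below 1 CPM, and 5 epithelial markers summed to 7.122 to 11.06 CPM in co-treatment libraries, 2.497 to 4.327 in pre-treatment controls and 7.374 to 13.31 in pre-treatment H2O2 libraries.

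Per kilobase of canonical transcript, FTL was the most abundant member in every library. In co-treatment controls its level was 914.1 ± 147.4 CPM per kb (SD, n = 3), followed by FTH1 with 64.89 ± 29.48, NCOA4 with 54.1 ± 7.919 and TFRC with 44.98 ± 6.106 CPM per kb, and the ranges of these 3 genes overlapped. IREB2, at 29.06 ± 0.9406 CPM per kb (SD, n = 3), lay below them and SLC11A2, at 16.98 ± 1.502, below IREB2, both without overlap with a neighbour. SLC40A1 (7.081 ± 2.118 CPM per kb) and ACO1 (6.483 ± 0.07162) overlapped, and STEAP3 was lower, at 0.5498 ± 0.2613 CPM per kb (SD, n = 3). TF, the gene of the carrier protein made mainly by the liver, had only 2 to 41 reads per library. The canonical TF transcript is unusually long in this annotation, so its level per kb is not ranked.

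The low level of FTH1 next to FTL is read with care. FTH1 has many processed pseudogenes, and 33.7% of the 75-base windows of its canonical transcript occur elsewhere in the genome, against 11.7% for FTL and at most 0.62% for the other members except TF (5.58%). The files hold 25 FTH1 pseudogene symbols, of which 18 had counts, and their reads made up 6.61% to 15.24% of the sum of FTH1 and its pseudogenes in the co-treatment libraries. That share was 26.34% and 24.3% in pre-treatment controls 1 and 2, 11.57% in control 3 and 12.21% to 13.72% in pre-treated cells. For FTL and its 16 pseudogene symbols the share was 0.2993% to 0.6486%. Reads with several alignments, 0.2965 to 0.5991 per counted read over the 12 libraries, were set aside and counted on no gene. Such reads from FTH1 lower its count. How many there were was not tested, and FTH1 values are uncertain for this reason.

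**Figure D2:**
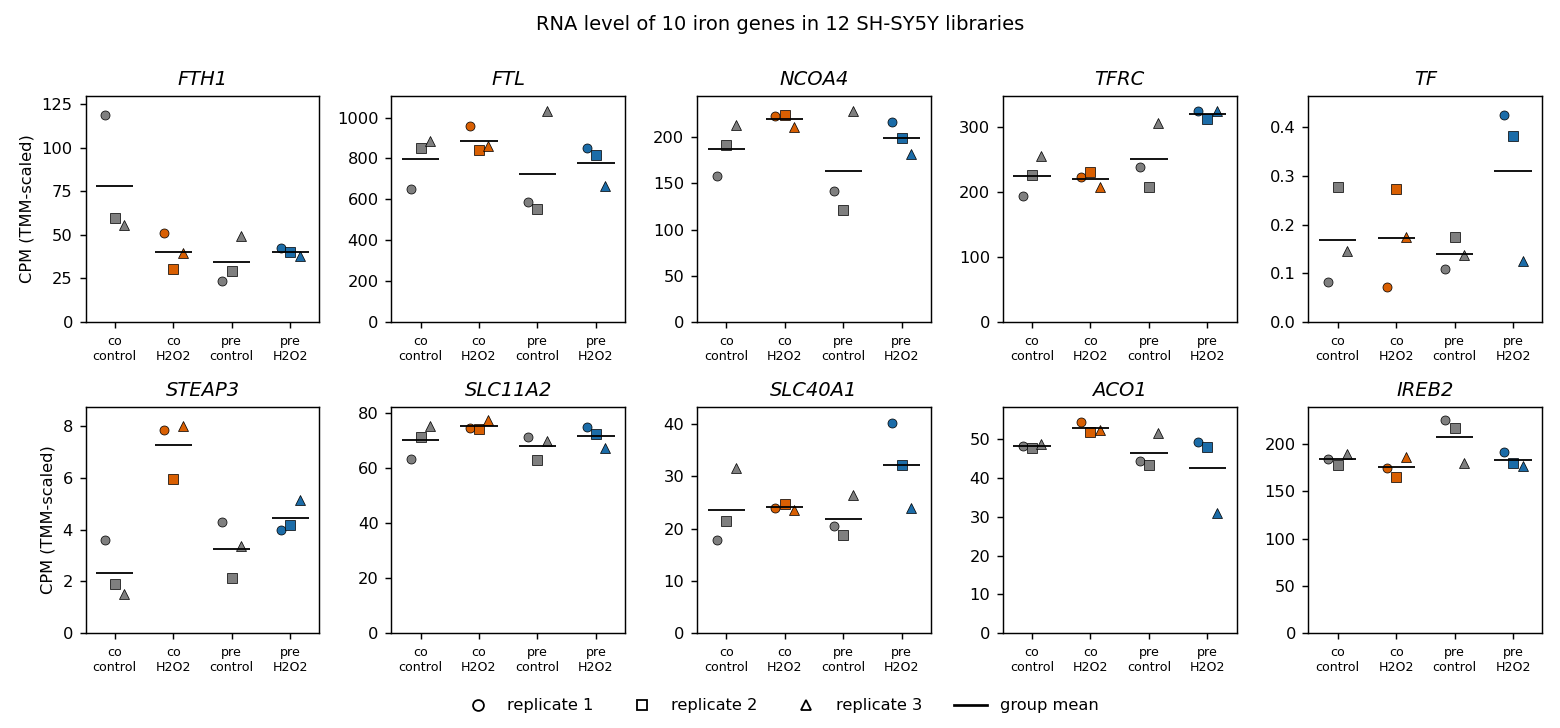
TMM-scaled CPM (y axes, from 0) of each of the 10 genes in the 12 libraries, by group on the x axes; symbols mark replicates and lines the group means. STEAP3 separates the co-treatment groups (1.520 to 3.608 against 5.958 to 7.988 CPM), and in FTH1, FTL and NCOA4 pre-treatment control 3 is the highest of its group.

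During differentiation under H2O2, no storage gene passed the test, and the ferritin heavy chain came nearest. FTH1 had 118.9, 59.72 and 55.53 CPM in the 3 co-treatment controls and 51.28, 30.19 and 39.57 CPM in the 3 treated libraries. The groups did not overlap, but control 1 stood well above controls 2 and 3. The log2 fold change (log2FC, treated against control) of FTH1 was -0.96 with a standard error (SE) of 0.27 and an unadjusted p of 0.00407, and the adjusted p of 0.22 in edgeR's quasi-likelihood test did not pass. Without control 1 the log2FC was -0.52 (adjusted p = 0.253), while edgeR's exact test (adjusted p = 0.0468) and the fit with no low-count filter (2.5e-08) did call FTH1. In RNA from whole cultures, fewer cells with a transcript and less of it per cell cannot be told apart. FTL had 649.2, 852.7 and 886.6 CPM in controls and 957.5, 839.7 and 863.4 CPM in treated libraries. These FTL values overlapped, with a log2FC of 0.16 (SE 0.15, adjusted p = 0.866). NCOA4 had 158.1, 191.0 and 212.6 CPM in controls and 222.9, 223.5 and 211.1 CPM in treated libraries. Its groups overlapped by 1 control, and its log2FC was 0.23 (SE 0.13, adjusted p = 0.740).

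Among the uptake genes, STEAP3, the endosomal ferrireductase, rose after co-treatment. It had 3.608, 1.898 and 1.520 CPM in the controls (177, 89 and 52 reads) and 7.818, 5.958 and 7.988 CPM in the treated libraries (220, 371 and 411 reads). All 3 treated libraries lay above all 3 controls. The fold change was 3.07 (log2FC 1.62, SE 0.30, adjusted p = 0.0307), and STEAP3 was the only 1 of the 9 members tested that was called, where 0.598% of all 22089 genes were called and 0.335% were called higher. The call did not hold with library size alone in place of TMM (adjusted p = 0.0768), in 1 fit over both experiments (0.168), or without control 2 (0.143), control 3 (0.0642) or treated library 1 (0.0877), 2 (0.0821) or 3 (0.196). The log2FC stayed between 1.39 and 2.08 with any library left out, and was 2.08 without control 1. TFRC had 194.6, 226.0 and 255.8 CPM in controls and 223.0, 230.5 and 208.1 CPM in treated libraries. The treated values lay within the control range, with a log2FC of -0.03 and a 95% interval of -0.32 to 0.26, and the sign turned with library size alone (0.03). SLC11A2 had 63.35 to 75.51 CPM in controls and 74.24 to 77.72 in treated libraries (log2FC 0.11, 95% interval -0.14 to 0.37). TF, at 0.07107 to 0.2772 CPM, did not reach the count filter in this experiment.

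The exporter SLC40A1 had 17.90, 21.36 and 31.47 CPM in co-treatment controls and 23.99, 24.63 and 23.44 CPM in treated libraries. The treated values fell inside the control range (log2FC 0.03, 95% interval -0.37 to 0.43). ACO1 had 48.21, 47.74 and 48.80 CPM in controls and 54.30, 51.89 and 52.24 CPM in treated libraries. These groups did not overlap, yet the log2FC was only 0.13 (95% interval -0.11 to 0.37, adjusted p = 0.847). IREB2 had 177.5 to 189.4 CPM in controls and 165.4 to 186.6 in treated libraries (log2FC -0.06, adjusted p = 0.947). In all, 3 of 9 members tested (FTH1, STEAP3 and ACO1) had groups that did not overlap, against 14% of all genes tested. The median log2FC of the members was 0.111, beside -0.001 over all genes.

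**Figure D3:**
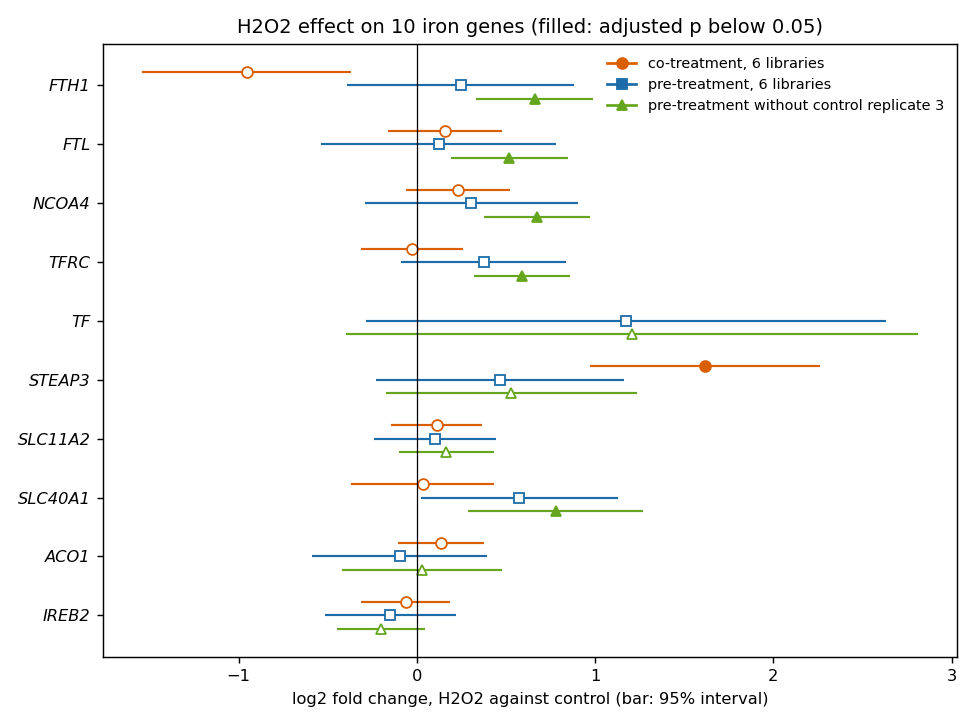
log2 fold change (x axis) of each member in the 3 comparisons, with 95% intervals from edgeR; filled symbols passed an adjusted p of 0.05 and TF was not tested in the co-treatment comparison. STEAP3 (1.62) is filled for co-treatment, no member is filled over the 6 pre-treatment libraries, and FTH1, FTL, NCOA4, TFRC and SLC40A1 (0.52 to 0.78) are filled without control 3.

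After pre-treatment, no member was called over all 6 libraries. The quasi-likelihood test called 0 of 10 members, where 0.0242% of 24743 genes were called. SLC40A1 alone had an unadjusted p below 0.05 (0.0434, adjusted p = 0.430), and edgeR's exact test and DESeq2 also called 0 members. TFRC was the 1 member of 10 whose groups did not overlap, against 16.4% of all genes. The median log2FC of the members was 0.275, beside -0.007 over all genes. Without control 3, 5 of 10 members were called and all 5 were higher, against 26.1% of 26350 genes called in either direction and 13.2% called higher (12.8% lower). Of the 10 members, 6 then had groups that did not overlap, against 57.2% of all genes, and the median log2FC was 0.560, beside 0.011 over all genes. With library size alone as the scaling, which moves the median of all genes by -0.219, 2 members were called higher (FTH1 and NCOA4) and 1 lower (IREB2), and calls over all genes went from 3490 higher and 3382 lower to 1384 and 4890. The 2 controls kept in this comparison are the libraries with many reads on no gene and few small structured RNAs, and 3 genes of the marker lists also moved with the treatment. VIM had 3.066 to 4.997 CPM in the 3 pre-treatment controls and 19.41 to 22.81 CPM in treated libraries (log2FC 2.42, adjusted p = 0.0442 over 6 libraries), and it was also higher after co-treatment (log2FC 1.16, adjusted p = 0.0272). COL3A1 had 13.25 to 22.19 CPM in these controls and 85.16 to 111.3 CPM in treated libraries (log2FC 2.44, adjusted p = 0.0442 over 6 libraries). KRT18, which carried the epithelial sum, had 0.3942 to 1.645 CPM in controls and 4.32 to 9.725 CPM in treated libraries (log2FC 2.98, adjusted p = 0.266 over 6 libraries and 0.00159 over 5), while EPCAM had 1.248 to 1.615 and 1.219 to 1.605 CPM. The part of these features in the members' values was not tested.

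Both ferritin genes rose after pre-treatment in the comparison without control 3 and did not pass the test over 6 libraries. FTH1 had 23.64, 29.55 and 49.39 CPM in pre-treatment controls 1, 2 and 3 and 42.21, 40.09 and 37.72 CPM in treated libraries. Control 3 lay above every treated library and the other controls below. The FTH1 log2FC was 0.25 (SE 0.28, adjusted p = 0.754) over 6 libraries and 0.66 (SE 0.14, adjusted p = 0.0133) over 5. It fell to 0.44 (adjusted p = 0.0442) with the pseudogene reads added, an alternative chosen after seeing the data, and the call was lost without control 1 (0.0688) or treated library 1 (0.0577) and in 1 fit over both experiments (0.132). FTL had 585.8, 554.4 and 1031 CPM in controls and 849.2, 817.3 and 664.0 CPM in treated libraries, again with control 3 highest of all 6. The FTL log2FC was 0.12 (adjusted p = 0.884) over 6 libraries and 0.52 (SE 0.14, adjusted p = 0.0314) over 5, and this call was lost without control 1 (0.0817), control 2 (0.156) or treated library 1 (0.114) or 2 (0.107). NCOA4, the ferritin cargo receptor, had 141.6, 120.6 and 227.7 CPM in controls and 216.4, 198.5 and 182.1 CPM in treated libraries. It followed the same order as FTL, with a log2FC of 0.31 (adjusted p = 0.680) over 6 libraries and 0.67 (SE 0.13, adjusted p = 0.00877) over 5, the latter lost without control 2 (0.0796).

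TFRC, the transferrin receptor, was the 1 member of 10 whose pre-treatment groups stayed apart with control 3 included, where 16.4% of all genes did. It had 239.4, 208.4 and 307.3 CPM in controls and 325.8, 312.6 and 324.8 CPM in treated libraries. All treated values lay above all controls, by a narrow margin over control 3. The TFRC log2FC was 0.37 (SE 0.20, adjusted p = 0.527) over 6 libraries and 0.59 (SE 0.12, adjusted p = 0.00963) over 5, with the call lost without control 2 (0.0805) and with library size alone (0.0563). STEAP3 had 4.281, 2.146 and 3.352 CPM in controls and 3.998, 4.156 and 5.133 CPM in treated libraries. Its groups overlapped, with a log2FC of 0.47 (95% interval -0.23 to 1.16) over 6 libraries and 0.53 (adjusted p = 0.234) over 5. SLC11A2 had 63.03 to 71.24 CPM in controls and 67.57 to 75.07 in treated libraries (log2FC 0.10, 95% interval -0.24 to 0.44, over 6 and 0.17, adjusted p = 0.317, over 5). TF had 6, 8 and 9 reads in controls and 41, 26 and 10 in treated libraries. That is 0.1088, 0.1752 and 0.1371 CPM against 0.4246, 0.3818 and 0.1252 CPM, so treated library 3 lay among the controls and the log2FC of 1.17 (SE 0.64) had an adjusted p of 0.529 over 6 libraries, and it was 1.21 (adjusted p = 0.233) over 5.

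SLC40A1, the only known iron exporter, had 20.46, 18.81 and 26.43 CPM in pre-treatment controls and 40.06, 32.21 and 23.89 CPM in treated libraries. Treated library 3 lay below control 3, so the groups overlapped over 6 libraries and not over 5. The SLC40A1 log2FC was 0.57 (SE 0.24, adjusted p = 0.430) over 6 libraries and 0.78 (SE 0.21, adjusted p = 0.0306) over 5. The latter call was lost without control 1 (0.0888), control 2 (0.165) or treated library 1 (0.0928) or 2 (0.0751), and with library size alone (0.0812). ACO1 had 44.32, 43.39 and 51.53 CPM in controls and 49.07, 47.86 and 30.96 CPM in treated libraries. Treated library 3 was the lowest of all 12 for ACO1, and the log2FC was -0.10 over 6 libraries and 0.03 over 5, with adjusted p of 0.877 and 0.924. IREB2 had 224.7, 217.1 and 179.6 CPM in controls and 191.4, 180.2 and 176.8 CPM in treated libraries. Controls 1 and 2 lay above every treated library, and the IREB2 log2FC was -0.15 (adjusted p = 0.743) over 6 and -0.20 (SE 0.11, adjusted p = 0.194) over 5.

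Whether the response to H2O2 differed between the schedules was tested with an interaction term fitted to all 12 libraries. Of the 10 members, 0 passed, where 0.0287% of 24407 genes did, and 2 had an unadjusted p below 0.05. The difference (pre-treatment minus co-treatment) was 1.18 for FTH1 (SE 0.44, unadjusted p = 0.0184, adjusted p = 0.522), or 0.77 without co-treatment control 1 (adjusted p = 0.468), and -1.18 for STEAP3 (SE 0.45, unadjusted p = 0.0214, adjusted p = 0.534). DESeq2 also called 0 members in this test. Without pre-treatment control 3, the FTH1 difference was 1.56 (SE 0.38, adjusted p = 0.0268), where 8.02% of 25668 genes were called, and FTH1 was the only member called. The TFRC difference was then 0.56 (adjusted p = 0.0630) and that of STEAP3 -1.15 (adjusted p = 0.125).

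Ratios of members within a library do not depend on the scaling. FTL had 5.458, 14.28 and 15.97 reads per FTH1 read in co-treatment controls and 18.67, 27.81 and 21.82 in co-treated libraries. All 3 treated libraries lay above the controls, and control 1 was far below the others. The log2 ratio of FTH1 to FTL was -3.43 ± 0.851 in controls and -4.49 ± 0.29 in treated libraries (SD, n = 3), a difference of -1.06 with an exact two-sided permutation p of 0.1, the smallest that 3 against 3 can give. Without co-treatment control 1 this difference was -0.573 (exact permutation p = 0.2). In the pre-treatment experiment there were 24.78, 18.76 and 20.87 FTL reads per FTH1 read in controls and 20.12, 20.39 and 17.6 in treated libraries. These overlapped, with control 3 between controls 1 and 2 for this ratio, and the difference was 0.14 (exact permutation p = 0.4). The log2 ratio of TFRC to FTH1, uptake against storage, differed by 0.87 after co-treatment (exact permutation p = 0.2), by 0.421 without co-treatment control 1 (exact permutation p = 0.4), and by 0.07 after pre-treatment (exact permutation p = 0.8). Over all 12 ratio tests run, adjusted p-values were 0.6 to 1.

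**Figure D4:**
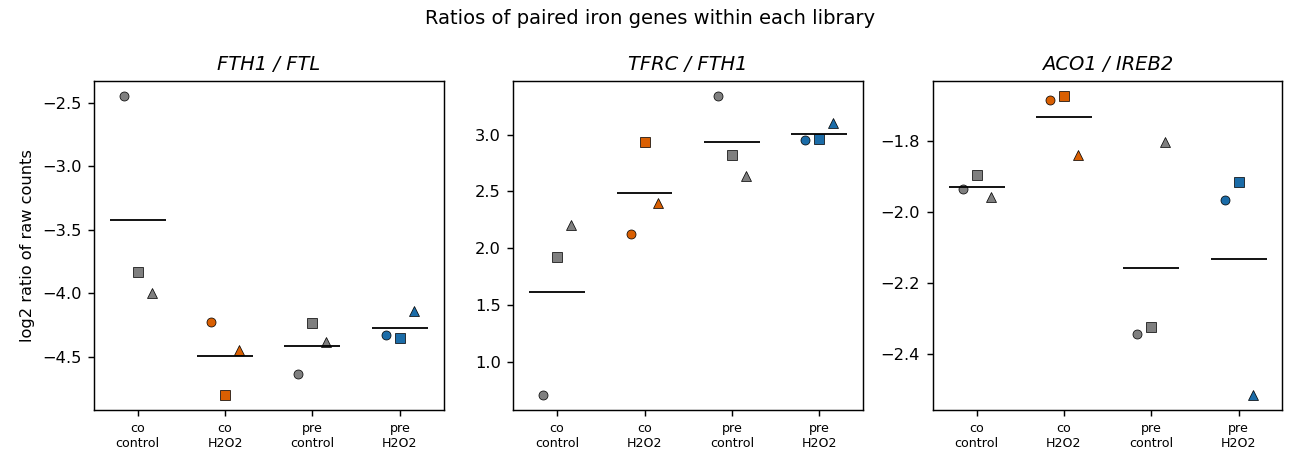
log2 ratios of raw counts (y axes, not from 0) of FTH1 to FTL, TFRC to FTH1 and ACO1 to IREB2 in each library, by group on the x axes; circles, squares and triangles are replicates 1, 2 and 3 and lines the group means. Co-treatment control 1 lies apart in both ferritin ratios (-2.45 for FTH1 to FTL), and the pre-treatment groups overlap in all 3.

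A further 75 genes of iron handling, listed by function, were examined. After co-treatment, 0 of 63 tested were called, with 6 at an unadjusted p below 0.05 and a median log2FC of 0.082, while edgeR's exact test and DESeq2 each called 1. Over the 6 pre-treatment libraries, 0 of 64 were called, 6 had an unadjusted p below 0.05, the median log2FC was 0.108, and the exact test called 1 and DESeq2 2. Without control 3, 23 of 64 were called (35.9%, against 26.1% of all genes), 15 higher and 8 lower. The iron chaperones PCBP1 and PCBP2, which deliver iron to ferritin, and HERC2, a ubiquitin ligase that acts on NCOA4, were all 3 lower. PCBP2 had 175.7, 270.4 and 70.62 CPM in controls and 65.56, 72.18 and 90.31 CPM in treated libraries, so the difference lay between controls 1 and 2 and all other libraries. Its log2FC was -1.48 (SE 0.20, adjusted p = 0.00243) over 5 libraries and -1.14 (adjusted p = 0.360) over 6. PCBP1 was at -1.31 (adjusted p = 0.00631) and HERC2 at -0.89 (adjusted p = 0.00388) over 5, and at -1.09 (adjusted p = 0.320) and -0.63 (adjusted p = 0.476) over 6.

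The remaining calls are read against 13.2% of all genes called higher and 12.8% called lower over the 5 libraries, and 0 of them passed in the quasi-likelihood test over 6. Among regulators, 3 of 6 tested were lower over the 5 libraries and 1 higher. EPAS1 (HIF-2α), an oxygen-sensing factor whose own transcript is known to carry an iron-responsive element, was at -1.20 (adjusted p = 0.00164), and NEO1, a co-receptor of the hepcidin pathway, at -0.94 (adjusted p = 0.00152). Over 6 libraries EPAS1 was at -1.03 (adjusted p = 0.320) and NEO1 at -0.74 (adjusted p = 0.328), with all controls above all treated libraries in both. FBXL5, the iron-sensing ubiquitin ligase subunit that removes IREB2, was at 0.54 (adjusted p = 0.0207) over 5 and 0.21 (adjusted p = 0.762) over 6, where control 3, at 98.75 CPM, lay above every treated library (72.08 to 90.68 CPM). Of 18 genes of mitochondrial iron and iron-sulfur clusters, 10 were called (55.6%), 9 higher and 1, IBA57, lower. The scaffold ISCU was at 0.74 (adjusted p = 0.00848) over 5 and 0.41 (adjusted p = 0.556) over 6, with control 3, at 64.64 CPM, among the treated libraries (61.41 to 65.32 CPM). Of 17 heme genes, 3 (17.6%) were higher, a share near that of all genes. UROD, an enzyme of heme synthesis, was at 0.96 (adjusted p = 0.00233) over 5 and 0.39 (adjusted p = 0.680) over 6, with control 3, at 98.8 CPM, above every treated library (75.13 to 85.43 CPM). PPOX, another, was at 0.80 (adjusted p = 0.00516) over 5 and 0.52 (adjusted p = 0.430) over 6. Of 9 genes of lipid peroxidation defence and ferroptosis, ACSL4, which makes the lipids that peroxidise, was at 0.58 (adjusted p = 0.0111) over 5 and 0.35 (adjusted p = 0.532) over 6, GPX4 was the other called, and none was called lower. Of 2 export genes tested, HEPHL1 was lower, and of 9 uptake and reduction genes 0 were called by the quasi-likelihood test, with 2 at an unadjusted p below 0.05. HMOX1, which frees iron from heme, had 0.8323 to 3.024 CPM in pre-treatment libraries and a log2FC of 0.53 (adjusted p = 0.747) over 6 and 1.31 (adjusted p = 0.0717) over 5, and it was at 0.53 (adjusted p = 0.709) after co-treatment. SLC39A14 and CYBRD1 were called in no comparison, HEPH was too low to test, and mitochondrial ferritin (FTMT) had 0 reads in all 12 libraries.

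**Figure D5:**
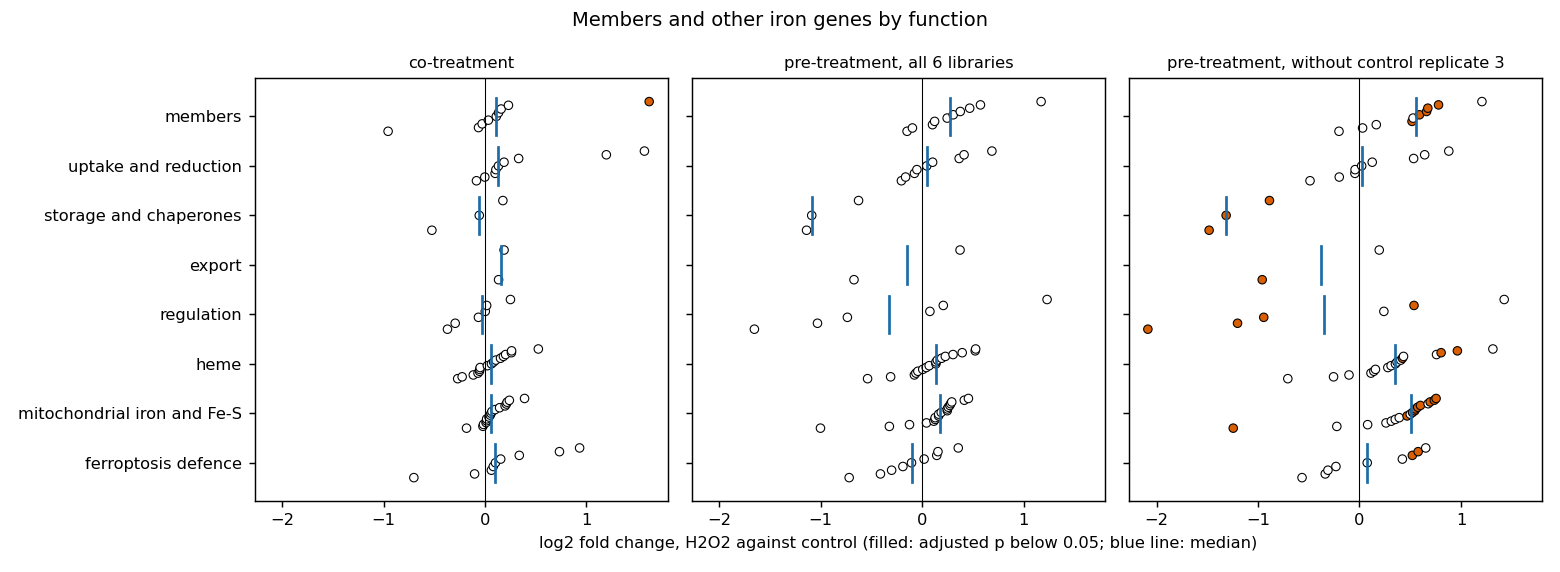
log2 fold change (x axes) of the members and of 7 groups of other iron genes (rows) after co-treatment, over the 6 pre-treatment libraries and without control 3; each point is a gene, filled points passed an adjusted p of 0.05, and blue lines are medians. The co-treatment panel holds 1 filled point (STEAP3), the middle panel 0, and the last panel 5 members and 23 other genes.

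The members lie at separate places of GRCh37, with TF and TFRC both on chromosome 3 and STEAP3 and SLC40A1 both on chromosome 2. FTH1 is on chromosome 11 (61727190 to 61735106, minus strand), FTL on chromosome 19 (49468566 to 49470136, plus) and NCOA4 on chromosome 10 (51565199 to 51590734, plus). TFRC lies on chromosome 3 at 195739382 to 195809024 (minus) and TF at 133464884 to 133515485 (plus). STEAP3 (119981407 to 120023228, plus) and SLC40A1 (190425316 to 190448484, minus) are on chromosome 2. SLC11A2 is on chromosome 12 (51373184 to 51422349, minus), ACO1 on chromosome 9 (32384601 to 32454767, plus) and IREB2 on chromosome 15 (78729773 to 78793795, plus).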

How the data were processed

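Stranded libraries were made from total RNA after removal of ribosomal RNA. The authors trimmed reads with cutadapt 2.10, aligned them to hg19 with HISAT2 2.1.0 and counted them per gene symbol with HTSeq 0.7.2, and the deposited values are raw counts with 5 closing entries for reads not counted on a gene, which made up 40.03% to 59.89% of all entries and were left out. The strand setting and annotation version are not given in the sources used here. The 2 deposited tables of the authors' own comparisons were not used.

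The software was edgeR 4.0.16 under R 4.3.3 (TMM, quasi-likelihood test, standard errors as the absolute log2FC over the root of F) and, as alternatives, DESeq2 1.42.0. A gene was tested if the CPM equal to 5 counts in the shallowest library was reached by a number of libraries no less than the size of the smaller group. Levels use scaling over 12 libraries, and log2FC each comparison's own. All members were named, with fixed partners and the 4 other iron genes of smallest p in each direction over 5 pre-treatment libraries, of which 1 partner is not reported here; further genes were named after their values were seen (IBA57, GPX4, HEPHL1, VIM, COL3A1, KRT18, EPCAM). The members and lists were chosen with earlier results of these data known. On simulated counts with 200 genes changed by 2 on the log2 scale, 99.5% were called at co-treatment (21500 genes), 79.0% over 6 pre-treatment libraries (24005 genes) and 94.5% over 5 (25526 genes), and 76.0% for the difference (23634 genes). Unchanged genes called numbered 15, 5, 17 and 11. The changed genes were drawn from well-counted ones, and all libraries otherwise shared 1 expected profile. The members' main log2FC were smaller than 2, so these shares do not give the power for them.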

Additional observations from a re-analysis of the deposited data

Results flagged for a closer look

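The response of FTH1 to H2O2 was called as different between the schedules when pre-treatment control 3 was left out. FTH1 was the 1 of 10 members called there, where 8.02% of 25668 genes were called. The pre-treatment controls kept in that fit, controls 1 and 2, are those that stood apart from the other libraries. The difference, pre-treatment minus co-treatment, was 1.56 on the log2 scale over these 11 libraries (SE 0.38, adjusted p = 0.0268 in edgeR's quasi-likelihood test), and 1.18 (adjusted p = 0.522) over all 12. With 1 library left out of the 12 it ranged from 0.77, without co-treatment control 1 (adjusted p = 0.468), to 1.56, and that control also moved the co-treatment log2FC of FTH1 from -0.96 to -0.52. FTH1 also has the largest share of windows found elsewhere in the genome among the members, 33.7%, and the part of this in the difference was not tested.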

How the results depend on the processing

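Of the members, 1 was called after co-treatment, and 2 were with edgeR's exact test, with no low-count filter and with the replicate block, against 0 with library size only and in 1 fit over both experiments, and 0 to 1 with a library left out. Of the other iron genes 0 were called there, but 1 with the exact test, DESeq2, library size only, TMM without small RNA loci and the replicate block, 2 with no filter, and 0 to 1 with a library left out. Over 6 pre-treatment libraries the 0 members called became 0 to 5 with a library left out, and the 0 other iron genes became 1 (exact test), 2 (DESeq2), 1 (no filter) and 0 to 23 with a library left out, the highest of both without control 3. Over 5 libraries the 5 members called became 3 with library size only, 0 with a log2FC threshold of 1, and 1 to 5 with a library left out; the 23 other iron genes became 13, 36 (replicate block), 5 (threshold) and 6 to 31. For the difference between experiments, 0 became 1 member and 1 other iron gene with no filter, and 0 to 1 and 0 to 7 with a library left out. Where 1 control was left, it was assumed to vary like the treated libraries.

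Signs turned for co-treatment TFRC with library size only (0.0255), for SLC11A2 (-0.0554) and ACO1 (-0.19) over 5 libraries with library size only, for ACO1 in 1 fit (-0.0269), and for the pre-treatment ratio of FTH1 to FTL with pseudogenes added (-0.0019). With a library left out, the log2FC ranged from -0.12 to 0.0702 for TFRC and -0.13 to 0.29 for SLC40A1 after co-treatment, -0.0492 to 0.52 for FTL and -0.20 to 0.0843 for ACO1 over 6 pre-treatment libraries, and -0.089 to 0.18 for ACO1 over 5. The difference between experiments ranged from -0.20 to 0.30 for FTL, -0.10 to 0.39 for NCOA4 and -0.0823 to 0.0715 for SLC11A2, and the pre-treatment ratio of TFRC to FTH1 from -0.0735 to 0.28. The cause of these changes was not tested. Calls over all genes after co-treatment were 74 higher and 58 lower, and 57 and 23 with library size only. They numbered 132 in all after co-treatment, and 3 in 1 fit over both experiments, 342 with DESeq2 and 535 with no filter; over 6 pre-treatment libraries they numbered 6, and 0 with the replicate block and 705 with DESeq2.

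The residual correlations of same-numbered libraries were 0.0313, -0.0356 and -0.111 after co-treatment. They were -0.233, 0.0456 and -0.27 over 6 pre-treatment libraries, and 0.175 and 0.0155 over 5. With so few libraries per group these values cannot show whether replicate numbers pair the libraries, and the main fits used no pairing. With the number as a block, the co-treatment FTH1 log2FC was -0.89 (adjusted p = 0.00974).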

Other observations

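The ratio of the transcripts of the 2 iron regulatory proteins was examined after its values were seen. There were 3.825, 3.719 and 3.881 IREB2 reads per ACO1 read in co-treatment controls and 3.209, 3.187 and 3.572 in co-treated libraries, so the groups did not overlap (log2 difference of ACO1 to IREB2 0.20, exact permutation p = 0.1, the smallest that 3 against 3 can give). In the pre-treatment experiment there were 5.071, 5.005 and 3.485 in controls and 3.9, 3.766 and 5.71 in treated libraries. Control 3 lay among the treated libraries and treated library 3 lay above controls 1 and 2 (exact permutation p = 1). The log2 ratio of TFRC to FTL, added at the same time, differed by -0.19 after co-treatment (exact permutation p = 0.2) and by 0.22 after pre-treatment (exact permutation p = 0.4).

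As a description over the 12 libraries, which share scaling and depth between genes, the log2 CPM most like that of FTH1 among 13972 genes with at least 1 CPM in every library was that of RILPL1 (Pearson r = 0.929), followed by TXN2 (0.914) and SCARNA18 (0.91). For FTL they were ZDHHC4 (0.989), COPRS (0.982) and COX6A1 (0.98), and for TFRC PIGN (0.934), LINC00667 (0.924) and ATXN3 (0.914).

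NQO1, a quinone reductase known as a target of the antioxidant response, had 32.74, 35.39 and 47.43 CPM in co-treatment controls and 66.02, 64.49 and 61.03 CPM in co-treated libraries (log2FC 0.73, SE 0.15, adjusted p = 0.0511 in edgeR's quasi-likelihood test). In the pre-treatment experiment its log2FC was 0.15 (adjusted p = 0.917) over 6 libraries and 0.65 (adjusted p = 0.311) over 5. NQO1 is 1 of the 9 listed genes of lipid peroxidation defence and ferroptosis. After co-treatment 0 of the 9 were called, with 7 log2FC above 0 and 2 below. SLC7A11 was at 0.93, TXNRD1 at 0.34, GCLM at 0.06 and SRXN1 at -0.70. NQO1 was named after its values were seen, and these others to set beside it.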
